A study of Homo sapiens with 8 samples.

Results

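Enzymes of the Golgi apparatus that build sugar chains on proteins were followed on 8 one-colour Agilent gene expression arrays, 2 arrays in each of 4 groups. They were 45 genes chosen by name as enzymes of mucin-type O-glycans, glycosaminoglycans, N-glycans and their sialic acid caps, C1GALT1 and CHSY1 among them, with the chaperone C1GALT1C1. Every non-control probe carrying one of these names was taken, which gave 64 of the 50599 probes and 45 of the 36337 gene names of the array, and all 45 names matched a current RefSeq symbol. The ORI arrays carried RNA of Nthy-ori 3-1, an immortalized line of thyroid follicular cells, transfected with premiR-375 (a synthetic precursor that raises the miRNA) or given the treatment that the labels name CTL only. The TT arrays carried RNA of TT, a line from a medullary thyroid carcinoma, which had received AntagomiR-375 (an antisense oligonucleotide against the same miRNA) or were labelled CTL. The paper uses pre-miR-CTL and antagomiR-CTL as control reagents in these lines, and the CTL groups were read as such. Its array methods name pre-miR-CTL but not antagomiR-CTL, so the reagent of TT_CTL is an assumption. All cells were harvested 48 h after transfection with a lipid reagent, at 5 nM for premiRs and 20 nM for antagomiRs as the labels give it, whereas the methods of the paper give higher concentrations for both. Each group is 1 cell line in culture. The methods of the paper call the replicates biological, and the labels do not say which arrays came from separate cultures, so the tests measure the spread between these arrays.

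Mucin-type O-glycans start when a polypeptide GalNAc transferase (the GALNT genes) puts N-acetylgalactosamine on a serine or threonine. C1GALT1 then adds galactose to make the core 1 structure, which needs its chaperone C1GALT1C1, and the GCNT genes add branches. Chondroitin and heparan sulfate are long chains attached to proteoglycan core proteins through a shared linker that starts with xylose, and are elongated by the CHSY and CHPF genes (chondroitin) or by EXT1 and EXT2 (heparan). Sulfotransferases then modify the chains, while N-glycans are trimmed by mannosidases, branched by the MGAT genes and capped with galactose and sialic acid.

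miR-375 acts through short complementary sites in mRNAs. Its mature form is printed because premiR-375 supplies it and AntagomiR-375 opposes it. It lies at chr2:219001648-219001669 on the minus strand of GRCh38.p14 (RefSeq), and the capitals mark the seed, bases 2 to 8.
hsa-miR-375-3p: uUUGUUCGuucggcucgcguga
The letters that pair with this seed, CGAACAA, were in none of the 64 member probes on either strand (0 of 64), and in 0.130% of all 50599 probes. The variant GAACAAA, which pairs with seed bases 2 to 7 followed by A and overlaps CGAACAA in the letters GAACAA, was in 1 of the 64, a CHST15 probe on its reverse strand, and in 1.55% of all probes on either strand. These matches concern the probe windows only. The array had no probe named for miR-375, so the level of the miRNA itself was not measured here.

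Between 32071 and 37340 of the 58717 non-control spots of an array were well above background. The labels' RNA integrity number was 8 for both TT_CTL arrays and 9 for the other arrays. Arrays with the same replicate number in a line shared a slide, each slide held 1 line, and each treatment was compared with its control within a slide (pair 1 and pair 2). Of 10 C cell and neuroendocrine markers on the array, 10 were called higher in TT_CTL, and 9 were not well above background on either ORI_CTL array. The calcitonin gene CALCA had a mean normalized log2 signal of 18.55 in TT_CTL and 3.74 in ORI_CTL. Thyroid follicular markers did not follow the label of the ORI cells throughout. Of 10 on the array 3 were called higher and 2 lower in TT_CTL. PAX8 (10.68 in ORI_CTL and 5.42 in TT_CTL) and FOXE1 (8.76 in ORI_CTL and not well above background in TT_CTL) followed the label, NKX2-1 was well above background in TT_CTL alone (12.28), TG was lower in ORI_CTL (4.87) than in TT_CTL (9.13), and TSHR was not well above background in either line. Of 5 fibroblast markers 1 was called in each direction. COL1A1 was at 13.80 in ORI_CTL and not well above background in TT_CTL, and LUM and DCN were well above background on both TT_CTL arrays, against 1 and 0 ORI_CTL arrays. Of 5 immune markers 0 were called higher and 1 lower in TT_CTL, and of 4 endothelial markers 1 in each direction. CD14, CD3E, PTPRC, VWF and CDH5 were well above background on both control arrays of both lines. Signal at that level was thus not limited to markers of the labelled cell types. Each array is a bulk measure of a cell line, so that fewer cells with a transcript and less of it per cell cannot be told apart. Signals below are normalized log2 signals of 1 probe per gene, and signals of different genes are not compared.

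CHSY1 and C1GALT1 had lower signal in ORI cells with premiR-375 and higher signal in TT cells with AntagomiR-375, in both pairs of arrays of each line. CHSY1 encodes a chondroitin synthase that polymerizes the chain, and its only probe lies at chr15:101716063-101716122 of hg19, minus strand. Its signal was 11.64 and 11.90 on the ORI_CTL arrays and 9.48 and 9.75 on the ORI_premiR-375 arrays, so that both treated arrays lay below both controls. The log2 difference was -2.15 ± 0.0798 (SE, n = 2 pairs), 4.45-fold lower, with -2.16 in pair 1 and -2.15 in pair 2. On the TT arrays CHSY1 was at 10.70 and 10.77 in TT_CTL and at 11.41 and 11.42 in TT_AntagomiR-375, without overlap. That difference was 0.68 ± 0.0851 (SE, n = 2 pairs), 1.6-fold higher.

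C1GALT1, the core 1 galactosyltransferase, was represented by the probe at chr7:7283565-7283624 of hg19, plus strand. It was at 8.49 and 8.77 in ORI_CTL and at 7.38 and 7.84 in ORI_premiR-375, and the groups did not overlap. The log2 difference was -1.02 ± 0.101 (SE, n = 2 pairs). In TT cells it was at 9.24 and 9.26 in TT_CTL and at 9.93 and 9.89 in TT_AntagomiR-375, again without overlap, for a difference of 0.66 ± 0.0855. The gene's other probes had the same directions, with log2 differences of -0.83 and -0.85 in ORI and of 0.80 and 0.37 in TT cells. Neither gene passed limma's test after Benjamini-Hochberg adjustment over all 50599 probes in either line, where the adjusted p was 0.318 in ORI and 0.512 in TT cells. Those values were also the smallest that any probe reached in each fit, in which 2 pairs left 1 residual degree of freedom.

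**Figure D1:**
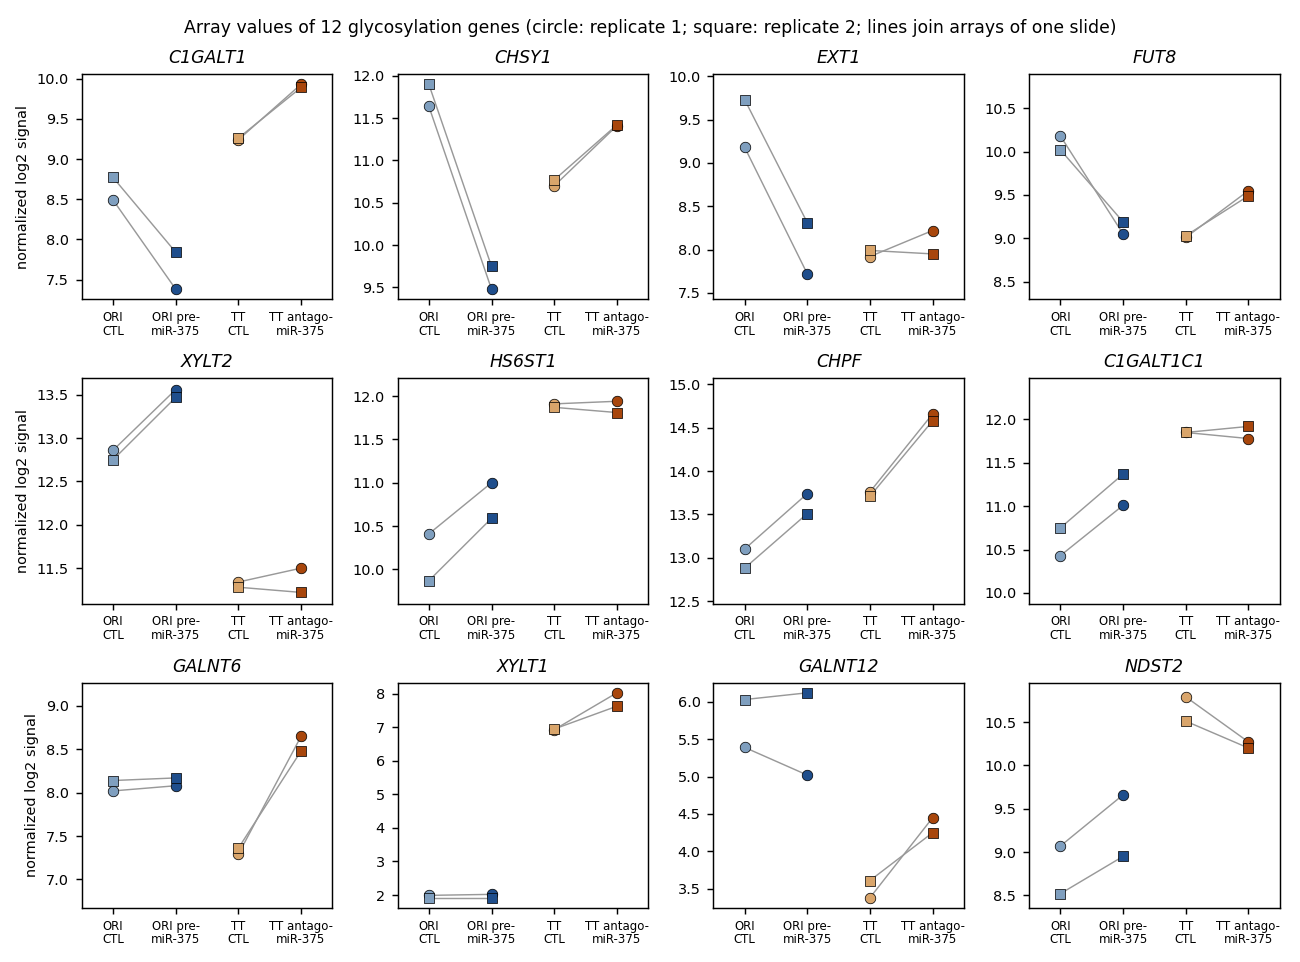
Normalized log2 signal (vertical axis) of 12 genes on each of the 8 arrays, by group (horizontal axis). Circles are replicate 1, squares replicate 2, and grey lines join arrays of one slide. CHSY1 and C1GALT1 were lower with premiR-375 in ORI and higher with AntagomiR-375 in TT cells, CHPF was higher with both, and GALNT6 was higher by 1.24 in TT cells and by 0.05 in ORI cells.

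In ORI cells, premiR-375 came with lower signal of enzymes that start or extend several kinds of chain, and with higher signal of others of the same routes. Of the 45 members 0 were called at an adjusted p of at most 0.05 (limma), as were 0 of all genes (0%). At an unadjusted p under 0.05, 8 members were lower (17.8%, against 7.37% of all genes and 11.8% of genes with an average log2 signal of at least 6) and 6 were higher (13.3%, against 7.45% and 11.1%). Shares of members in parentheses are over all 45. Of the 38 members at that average, 21.1% were lower and 15.8% higher. In both pairs 15 members were lower (33.3%, against 27.8% of all genes and 33.4% of genes at an average of at least 6) and 17 were higher (37.8%, against 32.5% and 41.2%), so that the share of members in each direction was near that of genes of like brightness. The groups did not overlap for 21 members (46.7%, against 31.0% of all genes and 39.4% of genes of that brightness), and the median difference over the 45 members was -0.02, beside 0.00 over all genes.

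Besides CHSY1 and C1GALT1, the members lower at an unadjusted p under 0.05 in ORI cells were EXT1, FUT8, GCNT1, B4GALT5, GALNT3 and CSGALNACT2. EXT1, a subunit of the polymerase of heparan sulfate, was at 9.18 and 9.73 in ORI_CTL and at 7.72 and 8.31 in ORI_premiR-375, with no overlap and a log2 difference of -1.44 ± 0.0811 (SE, n = 2 pairs). FUT8 adds the core fucose of N-glycans and was at 10.18 and 10.02 against 9.05 and 9.19, a difference of -0.98 ± 0.136. The branching enzyme GCNT1, which acts on the product of C1GALT1, was lower by a similar amount (-1.07 and -0.81 in the pairs), and B4GALT5, a galactosyltransferase, by less (-0.62 and -0.57). The initiating transferase GALNT3 was at 8.28 and 7.80 in ORI_CTL and at 7.78 and 7.22 in ORI_premiR-375, a difference of -0.54. CSGALNACT2, which starts chondroitin chains, had -0.46 and -0.34 with overlapping groups. Its other probes gave -0.33 and -0.16, the latter with opposite signs in the pairs.

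Members with higher signal in ORI_premiR-375 stood in the same routes. XYLT2, a xylosyltransferase that starts the glycosaminoglycan linker, was at 12.86 and 12.75 in ORI_CTL and at 13.56 and 13.47 in ORI_premiR-375, a log2 difference of 0.71 ± 0.0799 (SE, n = 2 pairs). The heparan sulfate sulfotransferase HS6ST1 was at 10.41 and 9.87 against 11.00 and 10.59, a difference of 0.66 ± 0.0921. The groups of both genes were apart. CHPF, a chondroitin polymerizing factor that acts together with CHSY1, was at 13.10 and 12.88 against 13.74 and 13.51, a difference of 0.64 ± 0.08 opposite to that of CHSY1 (0.27 with its second probe). C1GALT1C1, the chaperone of C1GALT1, was at 10.43 and 10.75 against 11.01 and 11.37, a difference of 0.60 ± 0.0803 opposite to that of C1GALT1. The other members at an unadjusted p under 0.05 were CHST11, a chondroitin sulfotransferase (0.69 and 0.47 in the pairs), and NDST2, a heparan sulfate N-deacetylase and sulfotransferase (0.59 and 0.44), both with overlapping groups.

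By step of synthesis, the highest and lowest members with signal in ORI cells are given here to show the range of each group. Among the initiating transferases they were GALNT7 (0.25) and GALNT3, among the heparan chain enzymes EXTL2 (0.42) and EXT1, and among the N-glycan enzymes the mannosidase MAN2A1 (0.43) and FUT8. In the capping group they were B4GALT1 (0.39) and B4GALT5, and in the linker group XYLT2 and B4GALT7 (-0.16). Among chondroitin sulfotransferases they were CHST11 and CHST3 (-0.10, with opposite signs in the pairs). Among heparan modifiers they were HS6ST1 and NDST1 (-0.02, also with opposite signs in the pairs). The remaining members of every group lay between these values, apart from CSGALNACT1 and MAN1A1, each well above background on 1 of the 4 ORI arrays. CSGALNACT1 was at 6.84 on 1 ORI_CTL array and between 2.01 and 2.62 on the other ORI arrays, and MAN1A1 was at 5.61 on 1 ORI_premiR-375 array and between 3.74 and 4.65 on the others. GCNT3, CHSY3 and XYLT1 were not well above background on any ORI array.

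The calls in ORI cells depended on how the signal was read. With normexp background correction of the mean signal 7 members were called (CHSY1, EXT1, C1GALT1, FUT8 and GCNT1 lower, CHPF and XYLT2 higher), and with the log2 values the authors deposited 2 were called (CHSY1 and EXT1, both lower). Over 10 alternatives that kept all ORI arrays the adjusted p of CHSY1 ranged from 0.0234 to 0.583 and its log2 difference from -2.23 to -2.06.

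**Figure D2:**
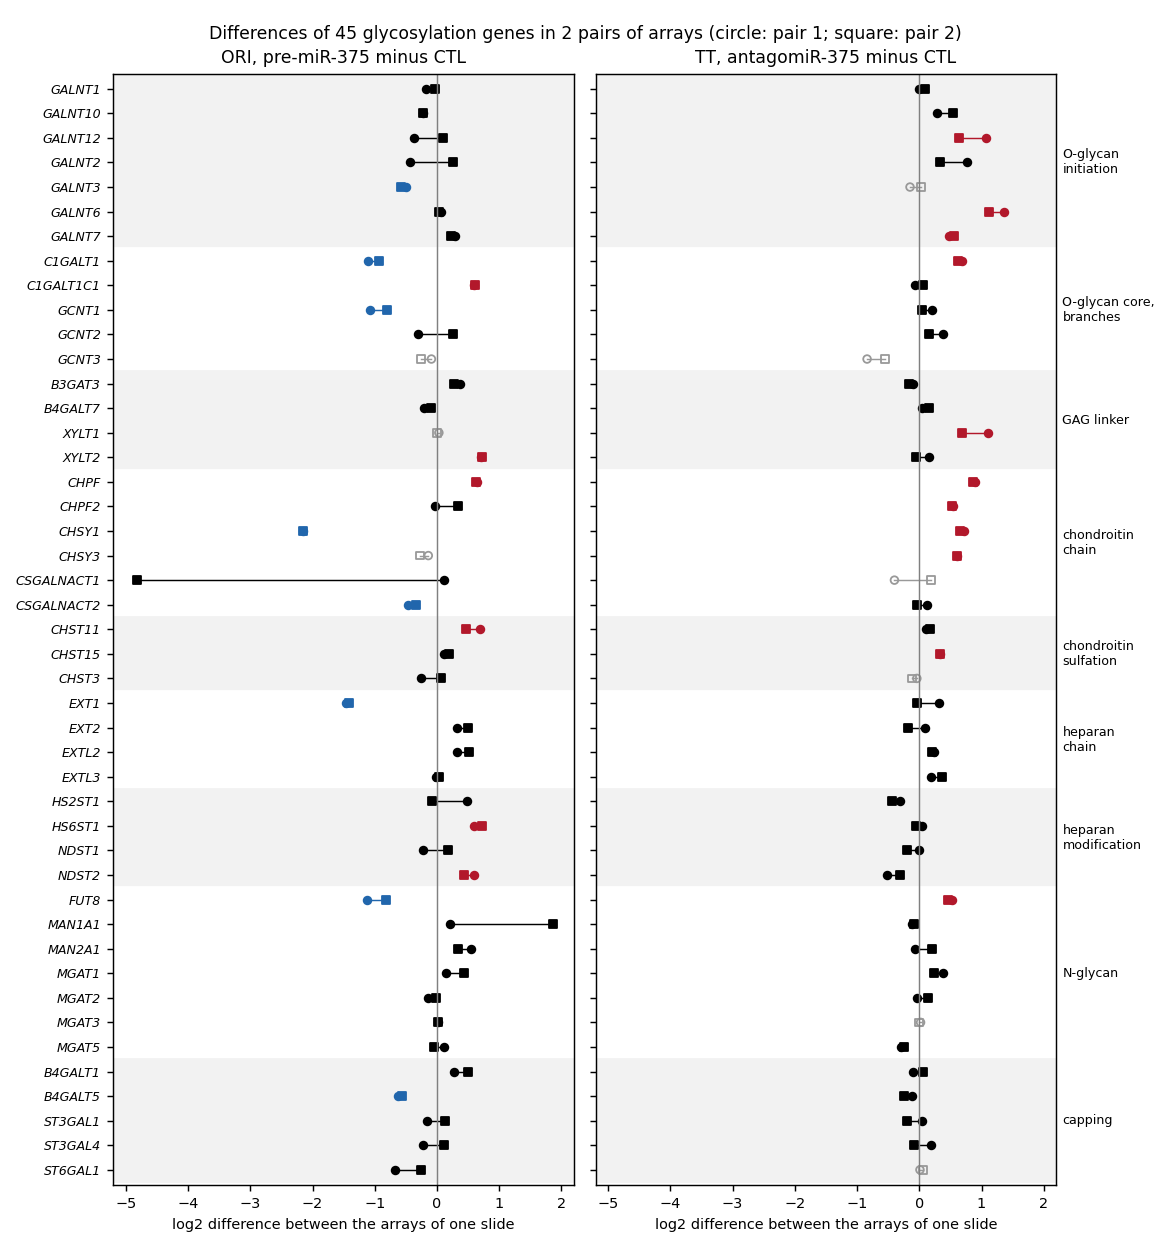
Log2 difference between treated and control array of one slide (horizontal axes; circles pair 1, squares pair 2) for the 45 genes (rows, shaded by step of synthesis) in ORI (left) and TT cells (right). Blue and red mark genes lower and higher at an unadjusted p under 0.05, and open grey symbols genes not well above background on any of the 4 arrays. In ORI cells 8 genes are blue and 6 red, and in TT cells 11 are red.

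In TT cells, AntagomiR-375 came with higher signal of some of the members among initiating O-glycan transferases and chondroitin chain enzymes, none of them called. Of the 45 members 0 were called at an adjusted p of at most 0.05 (limma), as were 0 of all genes (0%). At an unadjusted p under 0.05, 11 members were higher (24.4%, against 4.92% of all genes and 5.39% of genes with an average log2 signal of at least 6) and 1 was lower (2.22%, against 4.86% and 4.76%), GCNT3, whose probe was not well above background on any TT array. In both pairs 22 members were higher (48.9%, against 31.2% of all genes and 31.9% of genes at an average of at least 6) and 9 were lower (20.0%, against 30.9% and 36.2%). The groups did not overlap for 25 members (55.6%, against 43.1% of all genes and 50.3% of genes at an average of at least 6). Of the 35 members at that average, 25.7% were higher and 0 lower at an unadjusted p under 0.05, and the groups of 57.1% did not overlap. The median difference over the 45 members was 0.05, beside 0.00 over all genes. Both TT_CTL arrays had the lower RNA integrity number, so RNA integrity and treatment cannot be told apart here.

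Of the 7 initiating transferases among the members, 5 had groups that did not overlap, each of them higher in TT_AntagomiR-375. Groups were apart in either direction for 43.1% of all genes and 50.3% of genes with an average log2 signal of at least 6. GALNT6 was at 7.29 and 7.36 in TT_CTL and at 8.65 and 8.48 in TT_AntagomiR-375, the widest difference of any member in this comparison at 1.24 ± 0.117 (SE, n = 2 pairs), 2.36-fold. GALNT12 was at 3.38 and 3.61, well above background on 1 of the TT_CTL arrays, and at 4.45 and 4.25 in TT_AntagomiR-375, a difference of 0.86 ± 0.169, which was 0.12 with the median signal and with the deposited log2 values. Neither gene's groups overlapped. GALNT7 (0.48 and 0.56 in the pairs), GALNT2 (0.77 and 0.33) and GALNT10 (0.28 and 0.54) were also apart from their controls, whereas GALNT1 differed by 0.04 (0.00 and 0.09 in the pairs, and -0.07 with its second probe) and its groups overlapped. GALNT3 was not well above background on any TT array.

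Of the 6 chondroitin chain enzymes 4 were higher in both TT pairs, against 31.2% of all genes and 31.9% of genes with an average log2 signal of at least 6. CHPF was at 13.76 and 13.71 in TT_CTL and at 14.66 and 14.58 in TT_AntagomiR-375, a log2 difference of 0.88 ± 0.0835 (SE, n = 2 pairs), so that it was higher with AntagomiR-375 as well as with premiR-375 in ORI cells. Its second probe differed by 0.05 only. CHSY3, a second chondroitin synthase gene, was at 4.75 and 4.55 against 5.37 and 5.16 (0.61 in each pair), and CHPF2 had 0.54 and 0.52. CSGALNACT2 differed by 0.05 and CSGALNACT1 was not well above background on any TT array. XYLT1, which like XYLT2 starts the linker, was at 6.93 and 6.95 in TT_CTL and at 8.03 and 7.63 in TT_AntagomiR-375, a difference of 0.90 ± 0.165, while XYLT2 itself differed by 0.05. The groups of XYLT1 were apart. CHST15, a chondroitin sulfotransferase, had 0.34 in each pair, and FUT8 was at 9.01 and 9.03 against 9.55 and 9.49, a difference of 0.50.

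Among members with signal, the lowest differences in TT cells were those of the heparan sulfate modifiers NDST2 and HS2ST1, followed by MGAT5 and B4GALT5. NDST2 was at 10.79 and 10.51 in TT_CTL and at 10.27 and 10.20 in TT_AntagomiR-375, a log2 difference of -0.41 ± 0.11 (SE, n = 2 pairs) with no overlap. HS2ST1, a heparan sulfate uronosyl sulfotransferase, was at 8.94 and 9.08 against 8.63 and 8.64, a difference of -0.38 ± 0.093. A second HS2ST1 probe gave 0.71, so the gene has no settled direction. MGAT5, which makes tri- and tetra-antennary branches of N-glycans, was at 11.91 and 11.94 against 11.62 and 11.70 (-0.26 ± 0.0846), and B4GALT5 was at 10.59 and 10.59 against 10.48 and 10.35 (-0.18 ± 0.094). Both were apart from their controls. The N-glycan enzymes with signal ran from -0.26 (MGAT5) to 0.50 (FUT8), with MGAT1 at 0.31 and apart from its controls. The O-glycan core and branching enzymes with signal ran from 0.00 (C1GALT1C1) to 0.66 (C1GALT1). GCNT2 lay between them at 0.26 with overlapping groups, and its second probe gave 0.76. The heparan chain enzymes ran from -0.05 (EXT2) to 0.28 (EXTL3), the linker enzymes other than XYLT1 from -0.13 (B3GAT3) to 0.09 (B4GALT7), and the capping enzymes with signal from -0.18 (B4GALT5) to 0.05 (ST3GAL4). ST6GAL1, MGAT3 and CHST3 were not well above background on any TT array.

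Lower signal in both ORI pairs and higher signal in both TT pairs, as in CHSY1 and C1GALT1, was found in 9 of the 45 members (20.0%, against 9.12% of all genes). They were B4GALT7, C1GALT1, CHSY1, CHSY3, FUT8, GALNT1, GALNT10, GCNT1 and ST6GAL1, with GALNT1 at 0.00 to 2 decimals in TT pair 1. The comparisons of the lines share no array. CHSY1 and C1GALT1 were named in the rule for the members, and the members were chosen with earlier results of these data known. Shares of members, here and elsewhere, are therefore not independent of that choice. CHSY3 was not well above background in ORI cells and ST6GAL1 in TT cells. Among genes well above background on at least 2 of the 4 arrays of each line the pattern was held by 7 of 36 members (19.4%, against 12.1% of all such genes). Of these 7, the members other than C1GALT1, CHSY1 and FUT8 had log2 differences in TT cells between 0.04 (GALNT1) and 0.41 (GALNT10). The opposite pattern was held by 3 members (6.67%, against 10.8% of all genes), B3GAT3, MAN1A1 and NDST2. Among genes well above background in both lines it was held by 2 of 36 members (5.56%, against 15.2%).

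**Figure D3:**
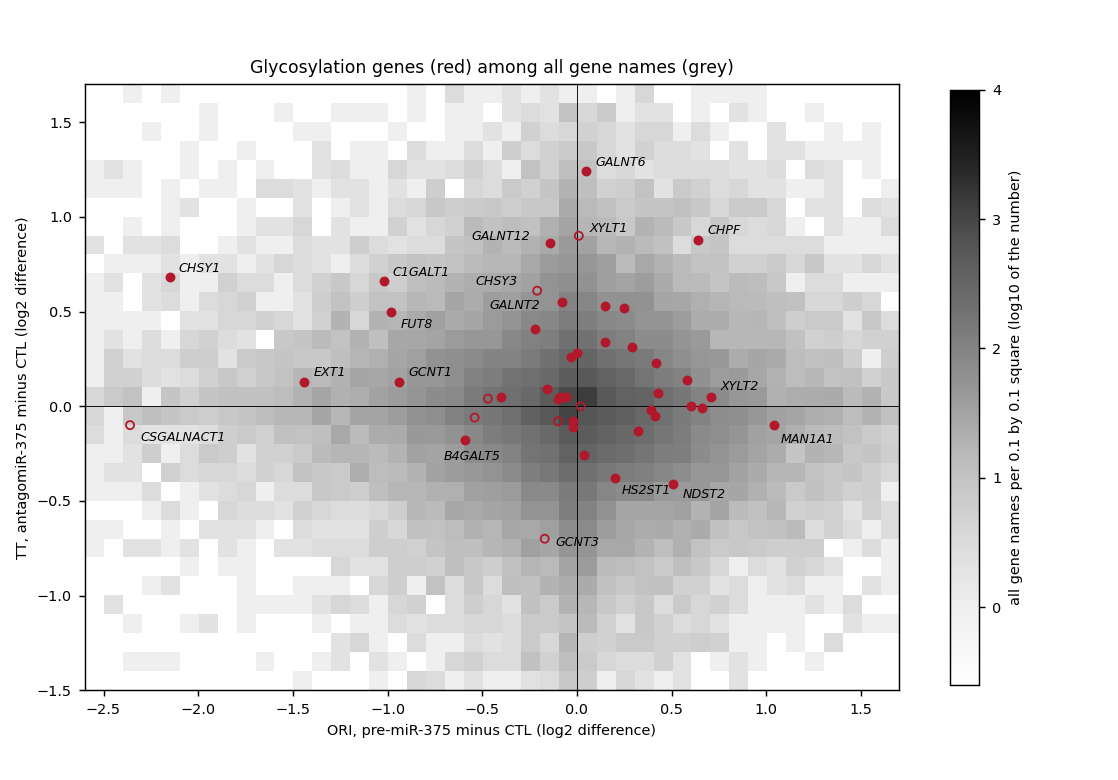
Log2 difference with premiR-375 in ORI cells (horizontal axis) against that with AntagomiR-375 in TT cells (vertical axis). Red points are the 45 genes, open where a gene was not well above background on any array of 1 of the lines, and grey squares count all gene names. CHSY1 (-2.15 and 0.68), C1GALT1 (-1.02 and 0.66) and FUT8 (-0.98 and 0.50) lie in the upper left, and CHPF (0.64 and 0.88) in the upper right.

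The control cells of the lines differed in most of these genes. Of the 45 members 28 were called at an adjusted p of at most 0.05 (limma, 62.2%, against 26.1% of all genes and 37.8% of genes with an average log2 signal of at least 6). In TT_CTL 12 were higher than in ORI_CTL (26.7%, against 13.5%) and 16 were lower (35.6%, against 12.6%). The groups did not overlap for 41 members (91.1%, against 65.4% of all genes and 77.0% of genes of that brightness), and the median difference over the members was 0.02, beside -0.05 over all genes. The fit leaned on the pair of TT_CTL arrays. Without TT_CTL replicate 1 no member and 0 probes were called and without TT_CTL replicate 2 the called members were ST6GAL1 and XYLT1, and with the replicate number as a block 18 were called. The 10 members that lost the call under the block were B4GALT5, C1GALT1C1, CHPF, CHST11, CHSY1, EXT1, FUT8, GALNT6, GALNT7 and HS6ST1. Each line lay on slides of its own and TT_CTL had the lower RNA integrity number, so that line, slide and RNA integrity cannot be told apart.

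Related enzymes were high in different lines. Among the initiating transferases, GALNT10 had a mean of 10.09 in ORI_CTL and was at 12.97 and 12.67 in TT_CTL, a log2 difference of 2.73 ± 0.165 (SE, n = 2 arrays a group, adjusted p = 0.00514). GALNT1 was higher in TT_CTL as well, at 11.43 and 11.49 against 9.61 and 9.27 (2.02 ± 0.18), as was GALNT2 (1.40). GALNT3 was at 8.28 and 7.80 in ORI_CTL and not well above background in TT_CTL (1.92 and 1.73), which made it at least 21.7-fold lower there (adjusted p = 0.00243). The bound here and below is set by the lowest signal well above background on each dim array. GALNT12 (-2.22), GALNT6 (-0.75) and GALNT7 (-0.66) were lower in TT_CTL. All 7 initiating transferases chosen as members were thus called, 3 higher and 4 lower. Of all genes 26.1% were called, and 37.8% of genes with an average log2 signal of at least 6. Other GALNT genes were not among the members and are not in this count. GALNT6 and GALNT7 also lost the call with scaling to the 75th percentile. In the following step C1GALT1 did not pass the test (0.62 ± 0.161, adjusted p = 0.0849), C1GALT1C1 was higher in TT_CTL (1.26) and GCNT1 lower (-1.78). GCNT2, another branching enzyme, had the highest difference of that group (1.91) and did not pass the test (adjusted p = 0.0809). Its second probe passed (adjusted p = 0.00345), at 6.67 and 6.35 in TT_CTL and not well above background in ORI_CTL (2.49 and 2.66).

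The xylosyltransferases differed in opposite directions between the lines. XYLT1 was not well above background in ORI_CTL (1.99 and 1.92) and stood at 6.93 and 6.95 in TT_CTL, at least 5.97-fold higher (adjusted p = 0.00143), whereas XYLT2 was well above background in both lines, at 12.86 and 12.75 in ORI_CTL and at 11.34 and 11.28 in TT_CTL, a log2 difference of -1.49. Of the next linker enzymes B3GAT3 was higher in TT_CTL (1.61) and B4GALT7 differed by 0.02. Among chondroitin chain enzymes CHSY1 was lower in TT_CTL (-1.04 ± 0.157, adjusted p = 0.028) and CHPF higher (0.75). The call of CHPF with this probe was lost with scaling to the 75th percentile, and its second probe gave 2.03 (adjusted p = 0.0153). CHSY3 was at 4.75 and 4.55 in TT_CTL and not well above background in ORI_CTL (2.24 and 2.43), at least 1.22-fold higher, a call that was lost with normexp background correction (adjusted p = 0.0626) and with the median signal (0.0642). The call of CHSY1 was lost with the replicate block (adjusted p = 0.0709) and without ORI_CTL replicate 2 (0.0597).

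The sulfotransferases parted in the same manner. CHST3, which sulfates chondroitin, was at 8.49 and 8.95 in ORI_CTL and not well above background in TT_CTL (2.02 and 2.09), at least 34.7-fold lower (adjusted p = 0.00196). CHST15 was at 10.18 and 9.97 in ORI_CTL and at 6.98 and 6.68 in TT_CTL, a log2 difference of -3.25 ± 0.184. CHST11 was the other way round, at 5.41 and 6.31 against 8.81 and 8.65 (2.87 ± 0.376, adjusted p = 0.0209, and 0.0612 with the replicate block). The N-deacetylase and sulfotransferase genes of heparan sulfate among the members, NDST1 and NDST2, were called in opposite directions. NDST1 was at 14.50 and 14.20 in ORI_CTL and 11.46 and 11.36 in TT_CTL (-2.94 ± 0.169), and NDST2 was higher in TT_CTL (1.86). The second NDST2 probe gave 0.41 and did not pass the test (adjusted p = 0.138). HS6ST1 was higher in TT_CTL (1.75) and EXT1 2.83-fold lower, while EXT2 (0.61) and EXTL2 (-1.56) did not pass the test.

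In N-glycan synthesis the mannosidase MAN1A1 was at 9.52 and 9.51 in TT_CTL and not well above background in ORI_CTL (4.44 and 3.74), at least 34.3-fold higher (adjusted p = 0.00436). MGAT3, which adds the bisecting N-acetylglucosamine, was at 8.47 and 7.71 in ORI_CTL and not well above background in TT_CTL (1.81 and 1.77), at least 22.5-fold lower (adjusted p = 0.00392). FUT8 was lower in TT_CTL (-1.08). MGAT5 differed by -0.05 with the probe used and by -1.14 with its second probe (adjusted p = 0.0422). Of the capping enzymes ST6GAL1, which adds sialic acid to N-glycans, was at 6.57 and 6.42 in ORI_CTL and not well above background in TT_CTL (1.76 and 1.72), at least 7.42-fold lower (adjusted p = 0.00164). B4GALT1 (-2.16) and B4GALT5 (-0.98) were lower in TT_CTL too, and ST3GAL4 had the highest difference of that group (0.63) without passing the test. The second ST3GAL4 probe passed (adjusted p = 0.0431), at 5.09 and 5.11 in TT_CTL and not well above background in ORI_CTL (3.57 and 2.67).

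**Figure D4:**
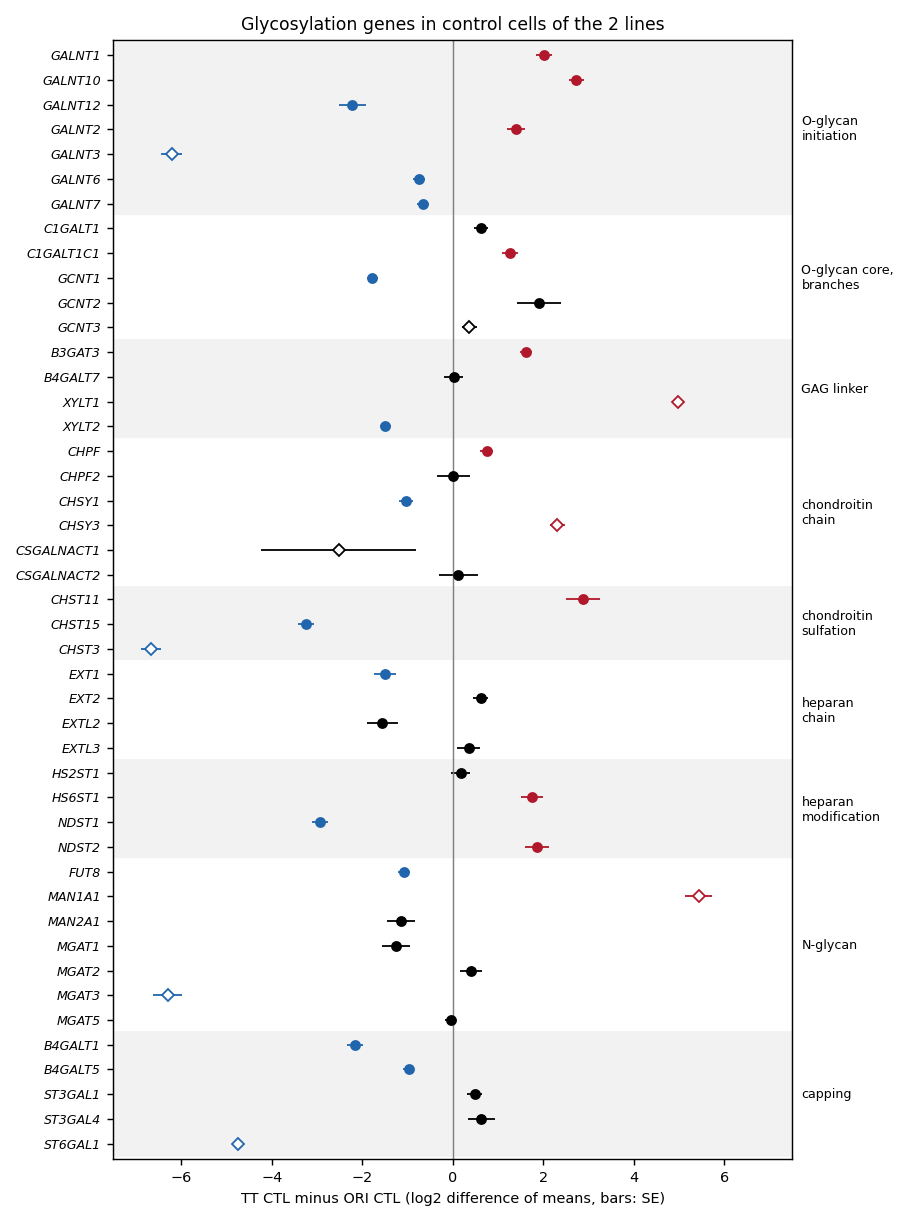
Log2 difference of the mean signal of TT_CTL minus ORI_CTL (horizontal axis; bars, SE of the fit; 2 arrays a group) for the 45 genes, by step of synthesis. Red and blue mark the 12 genes called higher and the 16 called lower in TT_CTL, and open diamonds genes not well above background on either array of at least 1 line, whose plotted difference is no measured fold.

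Genes around these enzymes were taken from 6 further lists. Of all genes, 7.45% were higher and 7.37% lower in ORI cells, and 4.92% and 4.86% in TT cells. Among genes with an average log2 signal of at least 6, the shares were 11.1% and 11.8% in ORI cells. In TT cells they were 5.39% and 4.76%. All these shares and the list counts are at an unadjusted p under 0.05, and the list counts were not repeated with other scalings. Among 78 other Golgi glycosyltransferases and sulfotransferases, 19 were higher (24.4%) and 2 lower (2.56%) at that level in ORI_premiR-375, with B3GALT4 highest (1.73) and ST6GAL2 lowest (-1.01). In TT cells the numbers were 8 (10.3%) and 6 (7.69%), with B3GNT5 highest, at least 3.11-fold, and ST8SIA4 lowest (-0.80). Among 23 genes supplying sugar nucleotides and the sulfate donor, 4 were higher (17.4%) and 5 lower (21.7%) in ORI cells, between the transporters SLC35B2 (0.56) and SLC35B4 (-1.49), and 6 were higher (26.1%) and 0 lower in TT cells, between SLC35B3 (0.85) and SLC35B2 (-0.27). None of these passed the adjusted test in either line.

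The 29 proteoglycan core proteins, which carry the glycosaminoglycan chains, had 3 higher (10.3%) and 2 lower (6.90%) in ORI cells, near the shares of all genes, from TGFBR3 (2.34, the betaglycan gene) to CD44 (-1.15), and 2 of each (6.90%) in TT cells, from VCAN (0.65) to SDC2 (-0.49, with opposite signs in the pairs). Of 18 genes that degrade or desulfate these chains, 7 were higher (38.9%) and 0 lower in ORI_premiR-375, and 1 was higher (5.56%) and 3 lower (16.7%) in TT_AntagomiR-375. HGSNAT, a lysosomal acetyltransferase of heparan sulfate breakdown, was the highest of them in ORI cells (0.96) and the lowest in TT cells (-0.60), and SGSH, a lysosomal sulfamidase, was the reverse (-0.12 and 0.56). The 8 genes of the COG complex, which tethers vesicles that recycle Golgi enzymes, had 0 higher and 1 lower in ORI cells, COG2 (-0.91) at one end and COG6 (0.30) at the other, and none past that level in TT cells, where COG3 (0.26) and COG6 (-0.40) were the ends. Of 18 Golgi structure genes 1 was higher (5.56%) and 3 lower (16.7%) in ORI cells, from GOLGA1 (0.57) to GOLGA4 (-1.95), and 1 was higher in TT cells, from GOLGA2 (0.48) to GOLGA4 (-0.29).

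Between the control cells, where 13.5% of all genes were called higher and 12.6% lower in TT_CTL, these lists held calls in both directions, apart from the COG genes. Of the 78 other transferases 28 were called higher (35.9%) and 14 lower (17.9%) in TT_CTL, from B3GALT2 (at least 85.6-fold higher) to GALNT14 (-5.68 on the log2 scale). Of the supply genes 1 was higher (4.35%) and 7 lower (30.4%), with GFPT2 lowest, at least 40.5-fold, and SLC35B1 highest (1.21, adjusted p = 0.0693). Of the core proteins 6 were higher (20.7%) and 8 lower (27.6%), from SPOCK3 (at least 16.4-fold higher) to CD44 (-9.17). The extracellular sulfatases of heparan sulfate marked both ends of the degradation list, in which 3 were higher (16.7%) and 2 lower (11.1%). SULF1 was at least 369-fold higher in TT_CTL and SULF2 at least 50.5-fold lower. The COG genes had 0 calls in either direction, between COG1 (0.69) and COG5 (-0.96) with 1 gene each way at an unadjusted p under 0.05, and the Golgi structure genes had 1 higher (5.56%) and 5 lower (27.8%), from TMED10 (1.35) to GOLGA2 (-1.64).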

How the data were processed

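The deposited data are 1 scanner file an array, written by Feature Extraction 10.10.1.1 and holding processed, mean, median and background intensity per spot, and 1 table of log2 values made by the authors. Within a line the sorted deposited log2 values of the arrays differed by at most 0.002 (median), and they followed the log2 median signal most closely. Probe positions are those of the files, in hg19. Processed intensity is background-subtracted, with surrogate values for dim spots. It was converted to log2 here, outlier spots were dropped, spots of a probe averaged, and the 8 arrays quantile normalized (limma 3.58.1, R 4.3.3). Each treatment was fitted within its line with the replicate number (slide) as a block, and the control groups without one, by lmFit and eBayes, with p adjusted by Benjamini-Hochberg over 50599 probes and called at 0.05. Deviations of arrays with the same number were correlated (r = 0.785 in ORI and 0.329 in TT cells), and number and slide coincide within a line, so that slide and any shared culture cannot be told apart. An exact permutation test of 2 against 2 arrays cannot go below p = 0.333 (two-sided). The probe well above background on most arrays, then the brightest, stood for a gene. The named genes were C1GALT1, CHSY1, the 4 highest and 4 lowest members in each treatment (same direction in both pairs, signal on at least 2 of 4 arrays), the 6 highest and lowest between lines, and the ends of each group and list. Others were named after their values were seen. Members and lists were chosen with earlier results of these data known. The steps were tested on simulated data, and figures were drawn with matplotlib 3.10.9. The labels name polyA RNA, whereas the methods of the paper name total RNA. Alternatives are given in the closing section.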

Additional observations from a re-analysis of the deposited data

How the results depend on the processing

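In ORI cells the count of called probes and members moved from 0 and 0 to 1560 and 7 with normexp background correction (offset 50), to 517 and 2 with the median signal, and to 577 and 2 with the deposited log2 values. The count at an unadjusted p under 0.05 of higher members was 0 with scaling to the 75th percentile and 12 with normexp, against 6. In TT cells that count was 11, and between 6 (without replicate 2) and 14 in the alternatives. There 0 members were called in each of the alternatives run, and 10 probes were called with the median signal. The median over members in TT cells (0.05) was 0.09 with normexp, 0.07 with the median signal, 0.13 among probes well above background on at least 2 of 4 arrays and 0.14 with the median over the probes of a gene. With the last setting HS2ST1 in TT cells reversed to 0.16. GALNT12 in TT cells ranged from 0.12 to 0.86 with all arrays kept. Leaving out a replicate gave medians of -0.04 to 0.06 in ORI and 0.09 to 0.11 in TT cells, with 0 members called. Without the replicate block 0 members were called in either line. For TT_CTL against ORI_CTL the replicate block gave 7258 probes and 18 members against 13029 and 28, and leaving out 1 array gave 0 to 11429 probes and 0 to 28 members, the lowest without TT_CTL replicate 1 (0 and 0) and the next without TT_CTL replicate 2 (1582 and 2), where the lone array is assumed to vary like the other group. The directions of the 12 members named between lines, of C1GALT1 and of CHSY1 were the same in all of these. The cause of these shifts was not tested. The 9 members lower in both ORI pairs and higher in both TT pairs were between 7 and 10 in number under the scalings, signals and spot filter tried. No depth is known for arrays beyond the number of spots well above background, and 2 arrays a group limit the precision.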
